A study of Homo sapiens with 4 samples.

Results

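Genes of glycolysis, the pentose phosphate pathway and the response to low oxygen were compared between U937-AE and U937-Mt cells. The group holds 47 named genes, chosen by pathway, of the 19775 genes that the probe sets of the array name. Of the 47, 45 had at least 1 probe set that names a single gene, which makes 113 probe sets, and 40 were measured. SLC16A3, which encodes a lactate exporter, and CA9, which encodes a carbonic anhydrase, were not analysed here.

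U937 is a human myelomonocytic cell line. U937-AE is a single clone carrying HA-tagged AML1/ETO, the fusion protein of t(8;21) leukemia, behind the zinc-inducible mouse metallothionein promoter, and U937-Mt is a bulk population carrying the empty pSGMtNeo vector. Both received 100 µM ZnSO4 for 8 h, so the controls share the zinc treatment. RNA of 3 extractions was pooled for each line, and each pool was hybridized to 2 Affymetrix HG-U133 Plus 2.0 arrays. The 2 arrays of a line are therefore copies of 1 pool: their spread covers hybridization error only, no test between the lines is possible, and the effect of the fusion protein and that of picking a clone cannot be told apart.

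Glycolysis splits glucose into pyruvate in the cytosol, and lactate dehydrogenase turns pyruvate into lactate, which leukemic cell lines release in quantity. The pentose phosphate pathway branches off early and supplies NADPH and ribose. When oxygen falls, prolyl hydroxylases of the EGLN family stop marking the HIF alpha subunits for the VHL ubiquitin ligase, and HIF, paired with ARNT, then activates glucose transporters, glycolytic enzymes and genes such as VEGFA by binding the core motif ACGTG.

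Promoters of 4 of the 6 called genes, HK2, ANKRD37, GPI and BHLHE40, are shown with this core motif, which HIF is known to bind, and VEGFA and NDRG1 are named only. Each line gives the 250 bases before an annotated gene start, 5′ to 3′, from RefSeq on GRCh38.p14, with ACGTG on either strand (ACGTG or CACGT) in capitals. HK2 has 2 annotated starts.
HK2, chr2:74833877-74834126, plus strand: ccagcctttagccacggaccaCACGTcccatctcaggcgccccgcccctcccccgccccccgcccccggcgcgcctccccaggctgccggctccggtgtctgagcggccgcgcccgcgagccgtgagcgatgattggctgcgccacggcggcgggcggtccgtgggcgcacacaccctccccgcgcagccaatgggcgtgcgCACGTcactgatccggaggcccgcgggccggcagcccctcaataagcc
HK2, chr2:74834920-74835169, plus strand: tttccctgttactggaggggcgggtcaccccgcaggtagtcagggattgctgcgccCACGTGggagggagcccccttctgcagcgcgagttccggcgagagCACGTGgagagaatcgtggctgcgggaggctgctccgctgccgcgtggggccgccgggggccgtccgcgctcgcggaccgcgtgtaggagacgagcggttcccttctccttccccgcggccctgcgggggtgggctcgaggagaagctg
ANKRD37, chr4:185396591-185396840, plus strand: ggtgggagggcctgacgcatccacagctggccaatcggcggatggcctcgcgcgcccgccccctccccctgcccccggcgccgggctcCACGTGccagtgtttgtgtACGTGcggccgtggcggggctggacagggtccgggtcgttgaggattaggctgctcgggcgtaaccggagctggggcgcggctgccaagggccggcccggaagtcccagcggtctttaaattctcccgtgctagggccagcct
GPI, chr19:34364742-34364991, plus strand: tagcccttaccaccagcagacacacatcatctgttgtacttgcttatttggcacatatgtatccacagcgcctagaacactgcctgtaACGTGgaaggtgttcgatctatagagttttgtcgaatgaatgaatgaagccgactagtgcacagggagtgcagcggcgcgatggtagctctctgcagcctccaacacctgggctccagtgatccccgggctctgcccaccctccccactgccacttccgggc
BHLHE40, chr3:4979187-4979436, plus strand: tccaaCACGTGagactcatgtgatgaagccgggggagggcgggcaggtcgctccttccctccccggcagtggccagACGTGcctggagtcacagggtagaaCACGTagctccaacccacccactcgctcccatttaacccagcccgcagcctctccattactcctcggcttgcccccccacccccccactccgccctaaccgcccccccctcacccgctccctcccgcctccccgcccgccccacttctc

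Where CACGTG appears in capitals, matches of both strands overlap in 1 palindrome, which is also the E-box that BHLHE40 itself is known to bind. The first HK2 window held its matches 229 and 48 bases before the start, the second 194 and 149, ANKRD37 162 and 143, BHLHE40 245, 174 and 149, and GPI had 1 match, 162 bases before the start. Entries were found for 42 of the 47 genes, with 70 windows, of which 27 (38.6%) held ACGTG on either strand, against 18.5% of 35116 windows of all genes. The AML1 core, TGTGGT or TGCGGT on either strand, was in 22.9% of the 70 windows and in 16.3% of all windows. Among the 5 windows printed, the first HK2 window held 1 AML1 core and the others held none. These counts describe letters in a short window and were not tested, and windows of 1 gene can overlap.

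The authors' values are GCOS signals on a linear scale. Signals under the median of their array (119.5 and 129.7 in U937-AE, 146.8 and 153.6 in U937-Mt) were raised to that median, the floor, before the log2 transformation. Each gene is represented by its brightest probe set, counted as measured where its mean log2 signal reached the floor in at least 1 pool, and was called higher or lower when each U937-AE array differed from each U937-Mt array (4 comparisons) by more than 1.5-fold (0.585 on the log2 scale). The fold is that of the mean log2 signals, and its range is that of the 4 comparisons. 1 of the 7 probe sets of RUNX1T1, the gene of ETO, gave 1361.5 and 1299.0 in U937-AE, compared with 8.6 and 7.6 for U937-Mt, so the arrays match their labels. Of 7 myeloid markers, 5 had a named probe set and all 5 were measured, with LYZ, ITGB2 and SPI1 called lower, and of 6 markers of other lineages with a probe set 4 were not measured while MS4A1 and COL1A1 gave signals of 123.1 to 156.7 and 190.0 to 324.3. The signal of the hybridization spike-ins was 1.27-fold higher on the arrays of U937-Mt and that of the 18S rRNA control probe sets 6.60-fold higher on those of U937-AE. Values under a scaling to the spike-ins are given beside the results, and the part of the 18S signal in them was not tested. The zinc-responsive genes MT1X, MT2A and SLC30A1 were lower on both U937-AE arrays than on either U937-Mt array, by log2 differences of -0.55, -0.55 and -0.65, and were not called.

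Among the 40 measured genes 2 were called higher in U937-AE, HK2 and ANKRD37, and 4 were called lower, GPI, VEGFA, NDRG1 and BHLHE40. The background over 12934 measured genes was 2.60% called higher and 6.12% called lower, so counts of 2 and 4 in 40 are near what the whole array gave. The median log2 difference of the 40 genes was -0.16, beside -0.10 over all measured genes. All 4 comparisons had the same sign for 9 genes that were higher and 20 that were lower, where the background was 25.4% and 38.5%. The split between higher and lower calls depended on how the arrays were scaled. With arrays scaled to the spike-ins 6 genes were called higher and 2 lower, where the background was 10.6% higher and 2.24% lower. The median of the 40 genes became 0.19, and that of all measured genes 0.24. Their joint rise was fixed beforehand and is not a result about the 40 genes, since spike-in scaling moves every gene's difference alike. BHLHE40 and NDRG1 were called lower and ANKRD37 was called higher under each of 5 scalings. The number of genes with a positive mean difference was 15 of 40 with the authors' scaling and 28 with the spike-ins. Over the 12934 measured genes these numbers were 5180 and 9271. None of the 6 called genes changed sign under any of the 5 scalings. The same-median, spike-in and GAPDH scalings raise all differences alike, so HK2 and ANKRD37 could neither change sign nor lose their calls there.

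After flooring, the copies of a pool lay close together for these genes. Their median log2 distance was 0.17 in U937-AE and 0.11 in U937-Mt, beside 0.14 and 0.15 over all measured genes. Floored copies were over 1.5-fold apart only for SLC2A3 in U937-AE and only for EPAS1 in U937-Mt. Before flooring the U937-Mt copies of P4HA2 were farther apart, at 19.0 and 193.5.

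**Figure D1:**
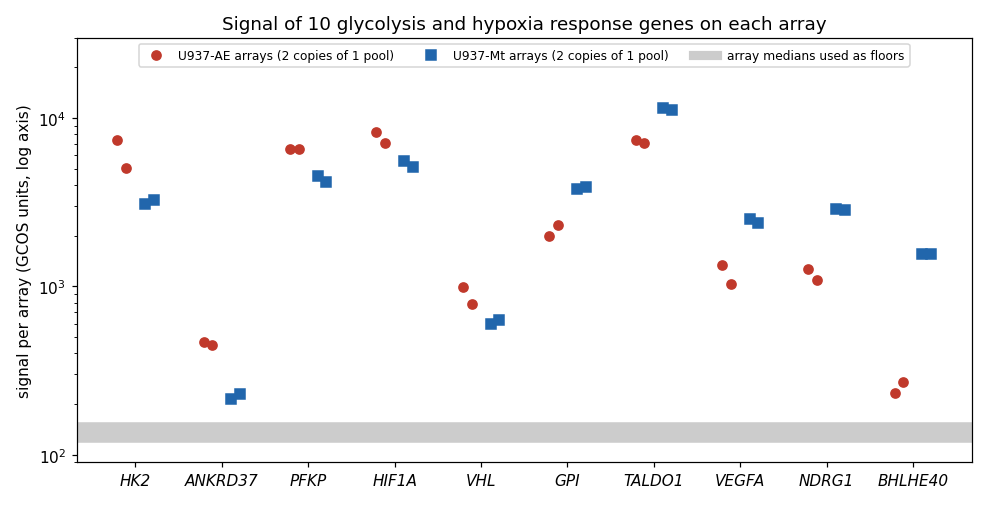
Signal on each of the 4 arrays (log axis, GCOS units) for 10 genes, with U937-AE arrays as red circles and U937-Mt arrays as blue squares, and a gray band for the array medians that served as floors. The genes shown are the called ones with PFKP, HIF1A, VHL and TALDO1, so the lack of overlap between the 2 lines follows from the choice. Over all measured genes 25.4% were higher and 38.5% lower in U937-AE without overlap. HK2 gave 5056.3 and 7421.6 above 3096.0 and 3254.1, and BHLHE40 233.9 and 270.3 below 1557.1 and 1567.6.

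At the entry of glucose into the cell and into glycolysis, HK2 was called higher in U937-AE and the glucose transporters were higher without a call. HK2, the inducible hexokinase that traps glucose as glucose 6-phosphate, gave 7421.6 and 5056.3 in U937-AE, compared with 3096.0 and 3254.1 for U937-Mt. Both U937-AE arrays lay above both U937-Mt arrays, the first by more than the second, and the gene was called 1.93-fold higher (1.55 to 2.40). Another 2 probe sets of HK2 went in opposite directions: one was 1.21-fold higher (1.03 to 1.42), the other, at 270.5 and 237.2 against 280.3 and 400.5, was 1.32-fold lower (1.04 to 1.69), and neither was called. Averaged over its 3 probe sets HK2 had a log2 difference of 0.27, and after quantile normalization one of 0.84, and it was not called in either case. HK1, the constitutive hexokinase, differed by less than the spread between copies (1.05-fold higher, range of log2 differences -0.15 to 0.28), and HK3, the myeloid-restricted form, was under the floor on all 4 arrays.

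SLC2A3, the high-affinity glucose transporter GLUT3, gave 967.8 and 644.7 on the U937-AE arrays, with 634.8 and 540.8 for U937-Mt, 1.35-fold higher (1.02 to 1.79). The copies of U937-AE were far apart, and the gene was not called, but it was called when the second U937-AE array was left out (log2 difference 0.72). Its other 2 probe sets were 1.61-fold and 1.63-fold higher and not called either. A further 2 probe sets name SLC2A14 as well and were left out. SLC2A1, the basal transporter GLUT1, was 1.20-fold higher (1.10 to 1.30), and its dimmer probe set had a mean log2 difference of -0.14.

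In upper glycolysis GPI was called lower in U937-AE and the other enzymes were not called. With the authors' scaling all 4 comparisons were lower for 6 of the 7 genes, where the background was 38.5%, and higher for PFKP, the platelet-type phosphofructokinase (median log2 difference -0.39). With arrays scaled to the spike-ins all comparisons were lower for 1 gene and higher for 2, and the median was -0.04. Of the 12934 measured genes 1610 were then lower and 6614 higher in all comparisons. PFKM and TPI1 had positive mean differences with that scaling. GPI, which converts glucose 6-phosphate to fructose 6-phosphate directly after the hexokinase step, gave 1992.3 and 2315.5 in U937-AE, compared with 3810.1 and 3898.2 for U937-Mt. It was called 1.79-fold lower (1.65 to 1.96) and was the one enzyme of glycolysis among the 47 genes called lower by its brightest probe set. That call was lost with the arrays shifted to the same median (log2 difference -0.57), scaled to the spike-ins (-0.50) or scaled to the GAPDH control probe sets (-0.46).

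The 3 phosphofructokinase subunits, which form the committed step, differed in sign with the authors' scaling. PFKP gave 6516.4 and 6540.2 in U937-AE, compared with 4524.7 and 4157.7 for U937-Mt. Its mean was 1.51-fold higher (1.44 to 1.57), and since the lower end of this range missed the threshold it was not called. Its dimmer probe set was 1.23-fold higher with a range of log2 differences that included 0 (-0.15 to 0.75). PFKP was called without the first U937-Mt array (log2 difference 0.65) and with the arrays shifted to the same median (0.86), scaled to the spike-ins (0.93) or scaled to the GAPDH control probe sets (0.98). PFKL, the liver-type subunit, gave 1300.3 and 1634.3 against 2026.4 and 1793.3, 1.31-fold lower (1.10 to 1.56), and its second probe set had a log2 difference of -0.27. PFKM, the muscle-type subunit, was 1.14-fold lower. With the spike-in scaling PFKL had a log2 difference of -0.04 and PFKM one of 0.15, and neither was called.

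The aldolases, which split fructose 1,6-bisphosphate, were lower without a call. ALDOA gave 13749.6 and 15876.6 against 22167.8 and 18268.6, 1.36-fold lower (1.15 to 1.61), and its other probe sets had log2 differences of -0.36 and -0.21. ALDOC gave 272.6 and 203.4 against 302.2 and 398.9, 1.47-fold lower with a wide range (1.11 to 1.96). TPI1, which interconverts the triose phosphates, had log2 differences of -0.19 and 0.01 on its bright probe sets, so no direction can be given for it.

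In lower glycolysis no gene was called by its brightest probe set. All 4 comparisons were lower for 4 of 7 measured genes, PKM, GAPDH, LDHB and ENO1, where the background was 38.5% (median log2 difference over the 7 of -0.25). With the spike-in scaling the median was 0.10, and ENO1 (0.10) and LDHB (0.02) had positive mean differences. PKM, the pyruvate kinase of proliferating cells, gave 13451.6 and 15051.9 in U937-AE, compared with 21031.7 and 19899.6 for U937-Mt, 1.44-fold lower (1.32 to 1.56). A dimmer probe set of PKM, at 292.4 and 318.5 against 513.9 and 631.0, was 1.87-fold lower (1.61 to 2.16) and was called, so both agree in sign.

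GAPDH, the dehydrogenase often used as a reference transcript, gave 27896.7 and 30769.0 in U937-AE, compared with 41216.6 and 36305.6 for U937-Mt on its 3′ control probe set, the brightest, and was 1.32-fold lower (1.18 to 1.48). All 6 of its probe sets, 3 of them array controls, were lower, by log2 differences of -0.51 to -0.36. The ratio of 3′ to 5′ control signal was 1.09 and 1.05 in U937-AE, compared with 1.12 and 1.09 for U937-Mt. With GAPDH set equal on all arrays 4 of the 40 genes were called higher and 2 lower, where the background was 9.63% and 2.06%.

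LDHB, the heart-type lactate dehydrogenase chain, gave 20870.6 and 24896.6 against 29749.5 and 27324.0, a log2 difference of -0.32 (-0.51 to -0.13), while LDHA, the chain that HIF induces, had a log2 difference of -0.03 (-0.14 to 0.08). PGAM1 and the brightest probe set of PGK1 likewise had differences whose range included 0. Among the other PGK1 probe sets, those with log2 differences of 0.10, 0.13 and 0.40 were higher in all 4 comparisons without a call. The rest had ranges that included 0. ENO1, enolase 1, was split between its probe sets. The brightest, at 30371.9 and 33861.9 against 39531.3 and 36675.4, was 1.19-fold lower, and another, at 1670.0 and 1715.5 against 975.6 and 963.5, was 1.75-fold higher (1.71 to 1.78) and was called. The sign of ENO1 therefore depends on the probe set as well as on the scaling. Which transcripts each probe set binds was not analysed here, and the neuronal enolase ENO2 was under the floor on all 4 arrays.

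**Figure D2:**
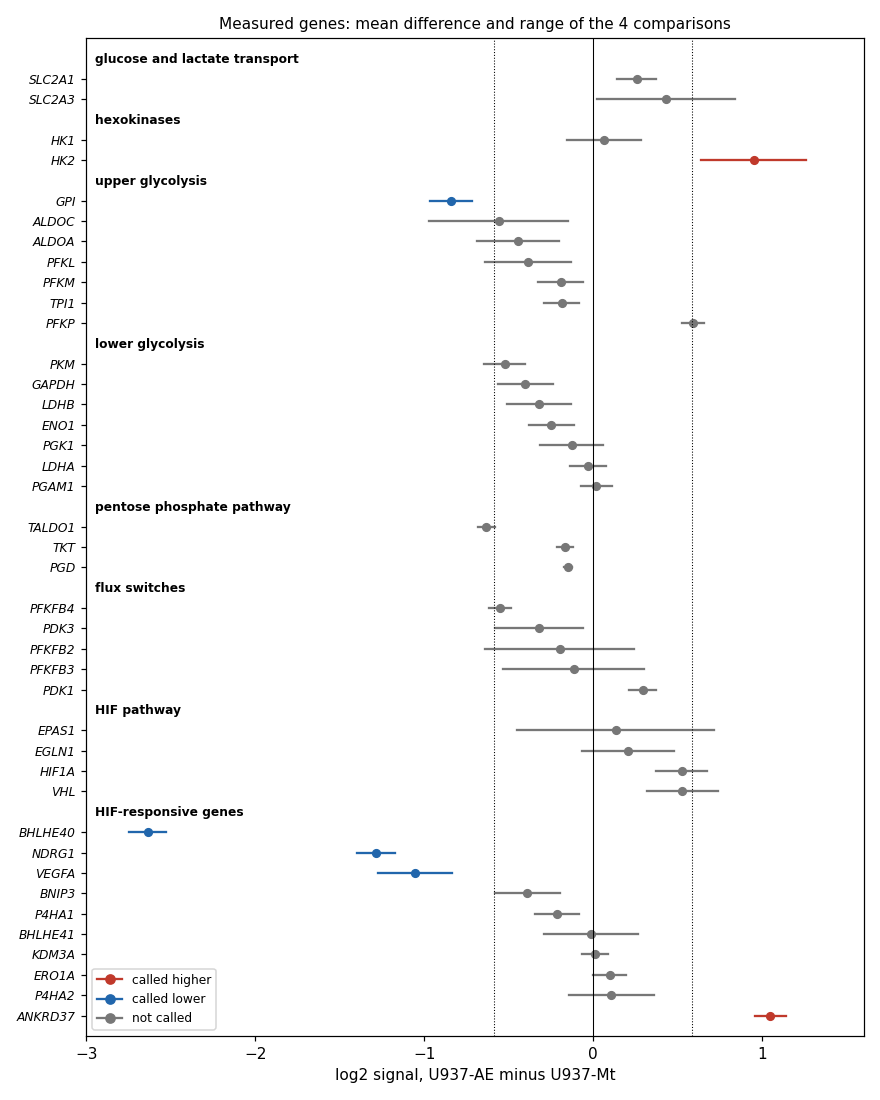
Mean log2 difference in signal, U937-AE minus U937-Mt, for the 40 measured genes by role (points), with bars from the lowest to the highest of the 4 array comparisons and dotted lines at 1.5-fold in either direction. HK2 and ANKRD37 lie wholly beyond the right line, GPI, VEGFA, NDRG1 and BHLHE40 wholly beyond the left, and the bars of PFKP and TALDO1 just cross a line.

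In the pentose phosphate pathway all 3 genes were lower in all 4 comparisons with the authors' scaling, where the background was 38.5%. With the spike-in scaling TALDO1 alone kept a negative mean difference (median log2 difference of the 3 of -0.17 and then 0.18). TALDO1, the transaldolase of the non-oxidative branch, gave 7453.3 and 7132.1 in U937-AE, compared with 11439.2 and 11172.7 for U937-Mt. It was 1.55-fold lower, and the smallest of the 4 log2 differences (-0.68 to -0.58) missed the threshold narrowly. It was called after quantile normalization (-0.71) and without the first U937-AE (-0.67) or the second U937-Mt array (-0.65). TKT, transketolase, and PGD, the second NADPH-producing dehydrogenase, were 1.12-fold and 1.11-fold lower.

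The enzymes that direct flux at the 2 ends of glycolysis were not called. PDK1 and PDK3 inhibit pyruvate dehydrogenase, and PDK1 is a HIF target that keeps pyruvate out of the mitochondrion. The brightest probe set of PDK1 gave 1387.4 and 1311.7 against 1132.4 and 1071.1, 1.22-fold higher (1.16 to 1.30), whereas its 2 dimmer ones were 1.34-fold and 1.57-fold lower with all comparisons below 0. PDK3 had a log2 difference of -0.32 (-0.58 to -0.06), and of 0.02 with the spike-in scaling. Its other measured probe sets had differences of -0.325 (-0.71 to 0.06) and 0.14 (-0.03 to 0.32), with ranges that included 0. The PFKFB enzymes set the level of fructose 2,6-bisphosphate, the activator of phosphofructokinase. PFKFB4 gave 116.3 and 79.0 in U937-AE, both under the floor, and 183.1 and 181.6 in U937-Mt, at least 1.46-fold lower (1.40 to 1.53). It was called with no floor (log2 difference -0.93) and without the second U937-AE array (-0.61). PFKFB2 and PFKFB3 had ranges that included 0.

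In the HIF pathway itself the 4 measured genes had positive mean differences with the authors' scaling and after quantile normalization. None was called with the authors' scaling. Over all measured genes 5180 of 12934 were positive with the authors' scaling and 6014 of 12938 after quantile normalization. The other scalings raise the differences of all genes by a shared amount, so these signs had to stay positive there. HIF1A, the main oxygen-regulated subunit, gave 8225.2 and 7159.5 in U937-AE, compared with 5529.0 and 5159.4 for U937-Mt, 1.44-fold higher (1.29 to 1.59). VHL, the substrate receptor of the ligase that removes it, gave 998.8 and 786.0 against 598.6 and 630.6, 1.44-fold higher (log2 range 0.32 to 0.74). Both genes were higher on each U937-AE array than on either U937-Mt array. With arrays scaled to the spike-ins both were called (log2 differences 0.87 each), where 10.6% of all measured genes were called higher. Scaled to the GAPDH control probe sets HIF1A was called (0.91) and VHL was not (0.915), where that share was 9.63%. VHL was also called without the second U937-AE array (0.70), and its other probe set was under the floor on all arrays. The HIF regulation of HIF1A is mostly at the protein level, which was not measured here.

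EPAS1, the HIF-2 alpha subunit, gave 746.6 and 641.5 against 454.2 and 876.9, so the arrays overlapped, and after flooring no other of the 40 genes had U937-Mt copies so far apart. A dimmer probe set of EPAS1, with both signals of U937-AE under the floor, was lower by at least 1.57-fold (1.31 to 1.88) without a call. EGLN1, the main oxygen-sensing prolyl hydroxylase, had a range that included 0 (-0.07 to 0.48). Its other measured probe set was lower in all comparisons (-0.32 to -0.23) and was not called. EGLN3, an inducible hydroxylase, and ARNT, the constant partner of both alpha subunits, did not reach the floor by the mean of their brightest probe set in either pool. A dimmer probe set of ARNT passed in U937-AE, at 140.6 and 116.1, with 89.4 and 100.7 for U937-Mt, and only the first of these signals was above the floor of its array.

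The HIF-responsive genes went in both directions, with 1 called higher, 3 called lower and 6 of the 10 measured not called. The background was 2.60% called higher and 6.12% lower. With the spike-in scaling 1 was called higher and 2 lower, where the background was 10.6% and 2.24%. ANKRD37, an ankyrin repeat gene strongly induced by hypoxia, gave 469.7 and 448.0 in U937-AE, compared with 213.1 and 230.9 for U937-Mt. Its arrays were well separated, and it was called 2.07-fold higher (1.94 to 2.20), although with the floor at the 75th percentile, which left only its first U937-AE signal above the floor, its log2 difference became -0.09. A second probe set of ANKRD37 was under the floor on all arrays.

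BHLHE40, a repressor of the clock and of differentiation genes, showed the largest difference among the 40 genes, at 233.9 and 270.3 in U937-AE, compared with 1557.1 and 1567.6 for U937-Mt. It was called 6.21-fold lower (5.76 to 6.70). Its second probe set, at 161.5 and 221.5 in U937-Mt with both signals of U937-AE under the floor, was lower by at least 1.52-fold without a call. BHLHE41, its paralog, had a log2 difference of -0.01 (-0.29 to 0.26).

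NDRG1, a stress-responsive gene linked to growth arrest, gave 1267.7 and 1090.3 against 2871.6 and 2861.9 and was called 2.44-fold lower (2.26 to 2.63). VEGFA, the angiogenic growth factor and classical HIF target, gave 1339.5 and 1039.7 against 2518.3 and 2392.3 on its brightest probe set, called 2.08-fold lower (1.79 to 2.42). Another 2 probe sets of VEGFA were called 2.79-fold (2.62 to 2.96) and 3.06-fold lower (2.76 to 3.38), and the dim remaining one was 1.82-fold lower with a wide range (1.15 to 2.87). All 4 probe sets thus pointed the same way, but the call of the brightest was lost with the arrays shifted to the same median (log2 difference -0.79), scaled to the spike-ins (-0.71) or scaled to the GAPDH control probe sets (-0.67).

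The remaining HIF-responsive genes showed small differences. BNIP3, a mitophagy receptor, gave 225.7 and 192.8 against 259.1 and 288.3, 1.31-fold lower (log2 range -0.58 to -0.20), and its second probe set had a log2 difference of -0.40. P4HA1, a collagen prolyl hydroxylase subunit, was 1.16-fold lower, and higher with the spike-in scaling (log2 difference 0.13). ERO1A, the oxidase of the endoplasmic reticulum, was 1.07-fold higher, and KDM3A, a histone demethylase, had a log2 difference of 0.01. P4HA2 had 1 U937-Mt array at 19.0 and the other at 193.5, so its range included 0. ADM, which encodes adrenomedullin, was not measured, with 78.1 and 30.3 in U937-AE and 132.9 and 159.7 for U937-Mt.

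Probe sets of 1 gene often differed in sign or in size. Of the 113 probe sets 83 were measured, 3 were called higher and 7 lower. The 7 include more than 1 probe set of VEGFA, so they are not 7 genes. The background by gene was 2.60% called higher and 6.12% lower, and none is given here by probe set. Among 22 genes with more than 1 measured probe set, 10 had mean differences of both signs, and 3 of these had one probe set with all comparisons higher and another with all lower, namely ENO1, HK2 and PDK1. For 14 of the 40 genes all probe sets carry the suffix _s_at or _x_at, which marks probes shared by several transcripts or prone to bind related ones, and GPI, VEGFA, NDRG1 and BHLHE40 are among them. Whether pseudogenes or paralogs add signal to these probe sets was not tested.

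A wider list of 97 other genes of the same pathways, also chosen with earlier results of these data known, gave a like picture. Of these, 89 had a probe set and 67 were measured, of which 5 were called higher, 5 lower and 57 not called (median log2 difference -0.06). The background was 2.60% called higher and 6.12% lower. With the spike-in scaling 12 were called higher and 4 lower, with 10.6% and 2.24% of all measured genes. The 26 measured HIF-responsive genes were the largest group of the list and held 3 of the genes called higher and 4 of those called lower. DDIT4, an inhibitor of mTORC1 induced by hypoxia and stress, gave 320.5 and 323.6 in U937-AE, compared with 1665.1 and 1687.5 for U937-Mt and was called 5.21-fold lower (5.15 to 5.27). CXCR4, a chemokine receptor, gave 1437.1 and 1335.8 with 6178.5 and 5229.1 for U937-Mt and was 4.10-fold lower (3.64 to 4.63), with both of its other probe sets also called lower. NFIL3, a transcriptional repressor, was 2.92-fold lower (2.60 to 3.27), and AK4, a mitochondrial adenylate kinase, 1.74-fold lower (1.56 to 1.94).

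In the other direction, PLIN2, the coat protein of lipid droplets, gave 2891.6 and 3041.3 against 1039.7 and 1080.0 and was called 2.80-fold higher (2.68 to 2.93). PAM, an enzyme that amidates peptides, was 2.47-fold higher (2.36 to 2.58) and was called with each of its 3 probe sets. CCNG2, an unconventional cyclin of resting cells, was 1.84-fold higher (1.76 to 1.92). Among the glycogen genes 2 of 5 measured were called, both higher: GBE1, the branching enzyme, at 6470.8 and 6071.5 against 3440.3 and 3735.8 (1.75-fold, 1.63 to 1.88), and PYGB, a glycogen phosphorylase, at least 2.14-fold with both U937-Mt arrays under the floor. Of 21 further genes of glycolysis, gluconeogenesis and pyruvate use only ENO3, the muscle enolase, was called, 2.72-fold lower (2.58 to 2.87). None of 3 other pentose phosphate genes, 3 other transporters and 9 other HIF pathway genes that were measured was called.

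**Figure D3:**
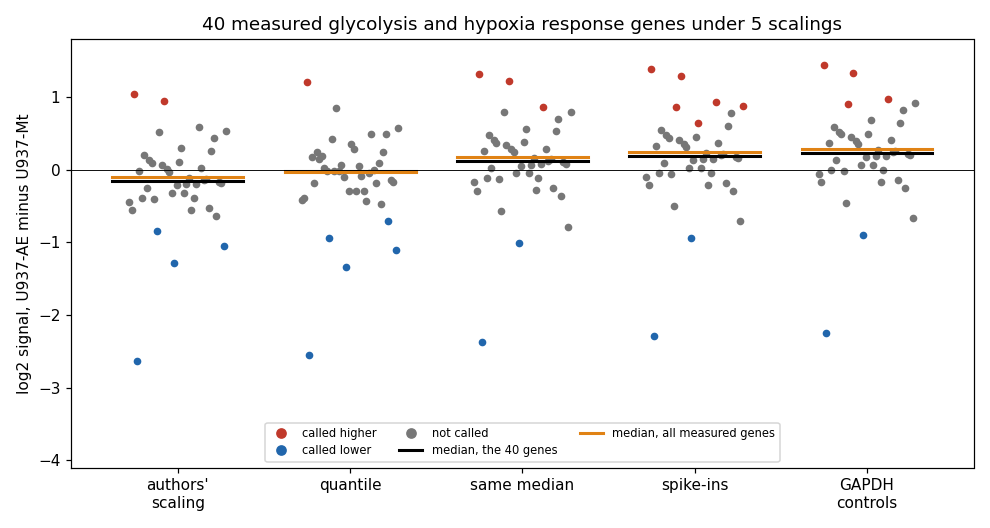
Log2 difference in signal, U937-AE minus U937-Mt, of the 40 measured genes (points, red for called higher, blue for called lower, gray for not called) under 5 scalings of the arrays, with the median of the 40 genes in black and that of all measured genes in orange. Both medians lie below 0 with the authors' scaling (-0.16 and -0.10) and after quantile normalization (-0.02 and -0.03), and above 0 with the other scalings.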

How the data were processed

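The authors hybridized each labeled pool to 2 arrays, computed 1 signal intensity per probe set and array with GCOS at default parameters, and scaled the arrays. The deposited intensities are linear, for 54675 probe sets of which 62 are controls. No GCOS version is given in the sources used here. Probe sets were named from the platform annotation, with symbols updated through the gene identifier: 41097 name 1 gene, 1801 several and 11777 none. Only the first were used. GAPDH is represented by an array control probe set.

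From these intensities, log2 signals, floors, differences and calls were computed as given with the results. With 1 pool per cell line, no test between the lines was made. The 40 measured genes were all accounted for. Array signals are given for called genes and for genes with 1 sign in all comparisons and a mean difference above 1.25-fold, and up to 6 called genes in each direction are named from the wider list. The genes, lists and rules were chosen with earlier results of these data known. The call rule was tested on simulated data that held only the noise between copies of a pool. Of 50 genes changed 2-fold in each direction it recovered 38 higher and 38 lower. It called 74 of 12734 unchanged genes.

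The alternatives were other scalings, floors, call rules and probe sets, and leaving out each array in turn. Among the call rules, limma and the methods' t-test give p-values that cover the spread between copies only. The number of arrays limits the precision. Scaling to GAPDH was chosen after seeing the data. The software was limma 3.58.1 in R 4.3.3, and matplotlib 3.10.9, pandas 2.3.3, scipy 1.17.1 and numpy 2.4.6 in Python 3.11.15.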

Additional observations from a re-analysis of the deposited data

How the results depend on the processing

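The main values were 2 genes called higher and 4 lower, a median log2 difference of -0.16 over the measured genes, and 5 called higher and 5 lower in the wider list. Scaling the arrays to the spike-ins gave 6 called higher, 2 lower, a median of 0.19 and 12 called higher in the wider list, while the calls over all measured genes went from 336 higher and 791 lower to 1369 and 290. Scaling to the GAPDH control probe sets, chosen after seeing the data, gave 4, 2, 0.23 and 10, with 1246 higher and 266 lower over all measured genes. With the arrays shifted to the same median 2 genes were called lower, beside 387 over all measured genes, and the median was 0.11. After quantile normalization 1 was called higher, beside 372 over all measured genes, and the median was -0.022. The number of arrays and the lack of a second pool limit the precision.

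With the floor at the 75th percentile 1 gene was called higher, beside 240 over all measured genes. ANKRD37 then had a log2 difference of -0.087, since only its first U937-AE signal is above that floor. With no floor every gene counts as measured, and 8 genes of the wider list were called lower, beside 1687 over all genes. At 2-fold in all comparisons none was called higher and 2 lower (0 and 2), and 2 of the wider list were called higher. Over all measured genes that rule called 98 higher and 263 lower. Where the mean of the arrays had to exceed 1.5-fold, 8 of the wider list were called lower, beside 1763 over all measured genes. The mean over all probe sets of a gene gave 0 called higher, a median of -0.19 and 2 called higher in the wider list. Counts over all measured genes are not given here for the settings that change the probe sets. With all _x_at and _s_at probe sets left out, 14 of the 40 genes had no value, 0 were called lower and the median was 0.064, because the 4 genes called lower have no other probe sets.

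Over the leave-one-out settings the counts were 2 to 4 called higher, 4 to 5 called lower, a median of -0.20 to -0.13, and 5 to 7 higher and 6 to 9 lower in the wider list. A gene has to pass fewer comparisons there, and no counts over all measured genes are given here for these settings. Without the second U937-AE array 4 genes were called higher, and without the first U937-Mt array 9 of the wider list were called lower.

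The array numbers only name copies of 1 pool: deviations of same-numbered arrays correlated with r = 0.039 over measured genes. With the replicate block, limma called 0 genes higher and 2 lower, and 2 of the wider list higher, where an unadjusted p under 0.05 gave 3 higher and 5 lower, and 5 higher in the wider list. Limma without the block called 2 higher and 5 lower, beside 397 and 824 over all measured genes. The methods' t-test at 2-fold called 1 higher and 3 lower and 2 of the wider list higher. After Benjamini-Hochberg adjustment it called 0 higher and 0 lower, and 0 and 1 in the wider list. For the fit with the block and for the t-test, no counts over all measured genes are given here. Their counts are therefore not a result about these genes apart from the rest of the array.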
